A study of Mus musculus with 24 samples.

Results

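Transfer RNA fragments (tRFs) of 22 nucleotides (nt) that end in CCA, the tail that every mature tRNA carries at its 3′ end, were described in small RNA libraries of mouse liver. Each tRF in the deposited table is named by a code of its own sequence, and the members were all rows of 22 nt whose code ends in CCA. The rule used sequence only and no measured value. It took 86 of the 8456 tRFs in the table, and these held 36385 of 833071 tRF counts (4.37%). The 30 members with at least 100 counts over the 24 libraries are described one by one, and they held 35577 counts (97.8% of the members' counts). The other 56 members had 1 to 99 counts, and 41 of them had at most 10. At the minimum of 100 counts, the lowest members inside were tRF-22-WB8US5652 and tRF-22-WEKSU8P52 with 109 counts each, and the highest outside was tRF-22-8B8HWKS52 with 99.

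All mice were C57Bl/6J, and the 3 groups held 8 libraries each. AM132 and AM608 mice ate a high fat diet for 11 weeks until obese and were then injected intravenously on 3 days with 3.3 mg/kg of a locked nucleic acid oligonucleotide. In AM132 this was a 16-mer against miR-132, and in AM608 a 15-mer against miR-608, a primate miRNA used as the control target. Livers were taken 7 days after treatment. RCD mice were of the same age, ate regular chow and were lean, and no injection is stated for them. Obese mice without an oligonucleotide are not among the groups, so diet and injection cannot be told apart in either comparison with RCD. The labels do not state that each library is 1 animal, and p-values measure the spread between these libraries.

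A tRNA folds into a cloverleaf whose 3′ part runs through the T loop, the T stem and the acceptor strand to CCA, the end to which the amino acid is joined. Cuts in the T loop release 3′ fragments of 2 usual lengths, 18 nt and 22 nt. Fragments of the longer kind have been found bound to Argonaute proteins, which also hold miRNAs, and there the seed (bases 2 to 8) is the part that pairs with a target. A 3′ fragment of leucine tRNA is known in cancer cells for an effect on ribosomal protein mRNA. In standard numbering of a 76-nt tRNA, the 22-nt fragments start at position 55 and the 18-nt fragments at position 59. A 22-nt fragment thus holds 6 bases of the T loop, 5 of the T stem, 7 of the acceptor strand, the discriminator base and the tail.

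The sequences below are those of the 8 most abundant members and of the other members on which a comparison turned. They are written 5′ to 3′ with T for U, as decoded from the names, and the seed is in capitals. The parent amino acids were assigned from general knowledge of mouse tRNAs after the sequences had been read.
tRF-22-WEKSPM852, alanine: tCGATCCCcggcatctccacca
tRF-22-8EKSP1852, alanine: tCAATCCCcggcacctccacca
tRF-22-8EKSPM852, alanine: tCAATCCCcggcatctccacca
tRF-22-WEK6PM852, alanine: tCGATCCCcagcatctccacca
tRF-22-WEKSP1852, alanine: tCGATCCCcggcacctccacca
tRF-22-WD8S746D2, glutamate: tCGACTCCcggtgtgggaacca
tRF-22-WD8SS46D2, glutamate: tCGACTCCcggtatgggaacca
tRF-22-WB86N7O52, leucine: tCGAATCCcacttctgacacca
tRF-22-WE8SPOX52, glycine: tCGATTCCcggccaatgcacca
tRF-22-WE8SPOL52, glycine: tCGATTCCcggccaacgcacca
tRF-22-W0K672052, valine: tCGAGCCCcagtggaaccacca
tRF-22-WB8689SV2, serine: tCGAATCCcatcctcgtcgcca
tRF-22-WB0Q37Q52, initiator methionine: tCGAAACCatcctctgctacca

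The fragments are near copies of each other at the 5′ end and differ in the acceptor strand. Of the 86 members, 74 started with TCGA or TCAA, the T-loop bases of most cytosolic tRNAs, and these held 36346 of the counts (99.9%). The TCGA start was found in 54 members with 30207 counts and the TCAA start in 20 members with 6139 counts (16.9%). The remaining 12 members held 39 counts, at most 9 each. As the seed lies in the T loop and T stem, the 30 described members had only 9 seeds between them. Over all 86 members there were 33 seeds. Counted over all 86, CGATCCC was shared by 5 members (5 of them described) with 8722 counts and CGAATCC by 14 (8 described) with 7309 counts. CGACTCC was held by 4 (3 described) with 6561 counts, CGATTCC by 10 (4 described) with 4909 and CAATCCC by 5 (2 described) with 4713.

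Alanine tRNA was the leading parent. Its 5 described members held 13111 counts (36.0% of the members' counts), followed by 2 glutamate members with 5774 (15.9%), 3 leucine members with 5172 (14.2%) and 3 glycine members with 4306 (11.8%). Valine (2 members) held 1885 counts, threonine (2) 1038, serine (2) 942, arginine (1) 785, glutamine (2) 673, initiator methionine (1) 553 and tyrosine (2) 539. Proline (253), phenylalanine (201), cysteine (127), isoleucine (109) and histidine (109) had 1 member each. The 5 most abundant members held 60.8% of the counts: tRF-22-WEKSPM852 (alanine) 6971, tRF-22-WD8S746D2 (glutamate) 5216, tRF-22-WB86N7O52 (leucine) 3712, tRF-22-8EKSP1852 (alanine) 3562 and tRF-22-WE8SPOX52 (glycine) 2657. Of the 30 described members, 27 had a count in every library.

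A wobble pair of G and U between positions 3 and 70 is the mark by which alanyl-tRNA synthetase knows its tRNA. Position 70 lies inside the 22-nt fragment and position 3 does not, so the pair itself is not seen. All 5 alanine members carry T at position 70, as do glycine tRF-22-WE8SPOX52 and serine tRF-22-WB8Y3DUV2. The base is shown in capitals in the most abundant alanine member.
tRF-22-WEKSPM852, position 70 in capitals: tcgatccccggcatcTccacca
The discriminator base at position 73, which many synthetases read, was A in 21 described members with 31759 counts, T in 5 with 1838, G in 3 with 1727 and C in 1 with 253. The G members are the serine and arginine fragments, the C member is the proline fragment, and the T members are those of threonine, glutamine and cysteine.

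Several members differ by 1 base. Among the 30 described members there were 10 such pairs over 15 members, with positions counted from 1 at the 5′ end of the fragment. Against tRF-22-WEKSPM852, the alanine member tRF-22-8EKSPM852 differs by G3A in the T loop, tRF-22-WEK6PM852 by G10A in the T stem and tRF-22-WEKSP1852 by T14C in the acceptor strand. Against tRF-22-8EKSP1852, tRF-22-WEKSP1852 differs by A3G and tRF-22-8EKSPM852 by C14T, so 4 of the alanine members are the 4 combinations of the bases at positions 3 and 14. The minor member of a pair held from 5.51% (tRF-22-WEKSP1852 against tRF-22-WEKSPM852) to 57.2% (the glutamine pair tRF-22-8BWS7K092 and tRF-22-8BWS72092, A15G) of the counts of the major one. The glycine pair tRF-22-WE8SPOX52 and tRF-22-WE8SPOL52 differs by T16C, and the second had 53.9% of the counts of the first. Glutamate tRF-22-WD8SS46D2 differs from tRF-22-WD8S746D2 by G13A and had 10.7% of its counts. Leucine tRF-22-WB8647O52 (985 counts) differs from tRF-22-WB86N7O52 by T13C and had 26.5%. Tyrosine tRF-22-WB884U1D2 (129 counts) differs from tRF-22-WE884U1D2 (410 counts) by T5A. A sequencing error of 1 base would move reads within a pair, and whether members of a pair stand for separate tRNA genes was not tested.

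Genome copies were found for 7 of the 30 members within promoter windows or transcripts of mouse build GRCm38, without the CCA, which is added after transcription. All 7 lay at the 3′ end of a RefSeq tRNA gene of the amino acid assigned. The copy of alanine tRF-22-8EKSP1852 was at chr13:21222639-21222657 on the plus strand, the last exonic bases of n-TAagc16 (chr13:21222586-21222657). That of leucine tRF-22-WB863IP52 (475 counts) was at chr7:120917580-120917598 on the plus strand, at the end of n-TLaag4. Serine tRF-22-WB8689SV2 (431 counts) matched the end of n-TSgct5 at chr13:22050686-22050704 on the minus strand. Serine tRF-22-WB8Y3DUV2 (511 counts) matched 3 genes, n-TStga2 and n-TStga1 on chromosome 13 and n-TSaga9 on chromosome 4, so its reads belong to no single gene. Valine tRF-22-WB08Q2B52 (243 counts) matched n-TVcac9 on chromosome 13, and glycine tRF-22-WE8S68L52 (216 counts) matched n-TGccc7 on chromosome 17, inside a transcript of Mettl26. The parents of the other 23 were not checked against tRNA genes here.

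The threonine member tRF-22-WB86Q3P92 (828 counts) shares its first 20 bases with an annotated miRNA, mmu-miR-5100 of 21 nt. Its copies lay at the end of the tRNA gene n-TTagt9 (chr7:35234770-35234788, minus strand) and in Mir5100 (chr11:60728698-60728716, plus strand). The shared bases are in capitals, with the miRNA as RefSeq gives it for GRCm38.p6.
tRF-22-WB86Q3P92: TCGAATCCCAGCGGTGCCTCca
mmu-miR-5100: TCGAATCCCAGCGGTGCCTCt
The authors' miRNA table listed 24 counts of mmu-miR-5100 over all libraries, at most 4 in one, against 828 for the tRF. Reads of the first 20 bases fit both, and the rule by which they were assigned is not given in the sources used here. Of the 9 seeds, 3 are also seeds of a mature mouse miRNA among 1679 searched: CGAATCC (mmu-miR-5100), CGATCCC (mmu-miR-6364, 0 counts) and CGAAACC (mmu-miR-6412, 1 count).

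CCA-ending fragments fell into few lengths. Over 16 to 30 nt, 566 tRFs ended in CCA and held 270884 counts (32.5% of all tRF counts). The 18-nt class held 196182 of these (72.4%) in 67 rows, the 22-nt class 36385 (13.4%), and the 16-nt class 18671 (6.89%). Lengths on either side of 22 nt were far lower, with 7370 counts at 21 nt and 1043 at 23 nt. Among 22-nt tRFs of any kind, 780 rows with 57246 counts, the CCA-ending ones made up 63.6%.

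**Figure D1:**
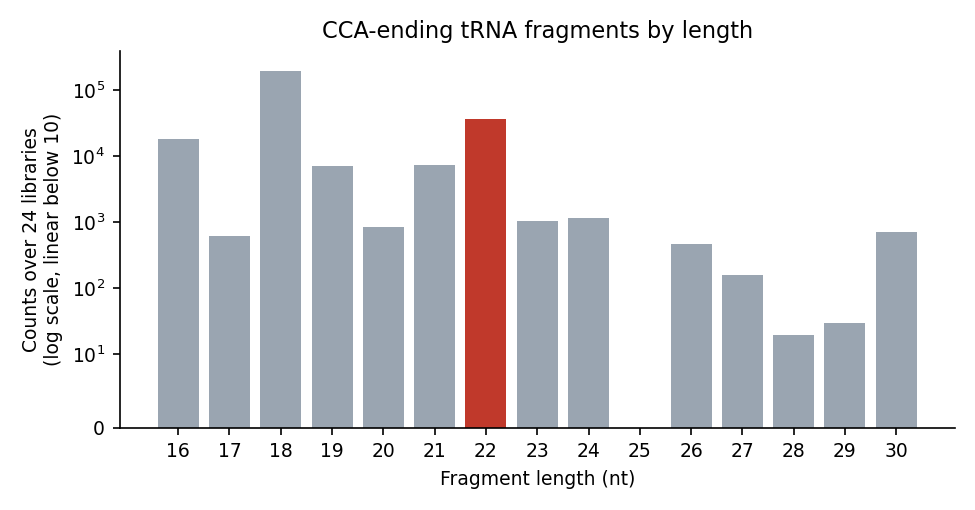
Counts of CCA-ending tRFs by length in nt, summed over the 24 libraries, on an axis that is logarithmic above 10 and linear below it; the 22-nt class is in red and each bar starts at 0. The 18-nt bar (196182) and the 22-nt bar (36385) stand above their neighbours, such as 19 nt (7211) and 21 nt (7370).

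The balance of 22 nt against 18 nt differed widely between parents. For 18 of the 30 described members the table has the 18-nt fragment made of the last 18 bases of the 22-nt one. The ratio of 22-nt to 18-nt counts ran from 0.0104 for cysteine tRF-22-8B8871K92 (127 against 12218 counts) to 7.97 for glutamate tRF-22-WD8SS46D2 (558 against 70). Over counts summed across libraries it was below 0.1 in 10 of the 18 and above 1 in 3, both glutamate members and glycine tRF-22-WE8SPOL52. Initiator methionine tRF-22-WB0Q37Q52 had 0.751 in the sum but a median of 3.31 over single libraries.

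Glutamate tRF-22-WD8S746D2 had 5216 counts and its 18-nt fragment 969, a ratio of 5.38. Over single libraries this ratio was 1.71 at the lowest, 5.11 at the median and 15.2 at the highest. The 22-nt form was the more abundant in every library. Around it, the same 3′ end was counted 2065 times at 21 nt, 516 times at 23 nt and 684 times at 24 nt.

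Alanine tRF-22-WEKSPM852 showed the reverse, with 6971 counts against 71370 for tRF-18-8R6Q46D2. Its ratio in single libraries ran from 0.0303 over a median of 0.0960 to 0.221, so the range did not meet that of the glutamate fragment. The 18-nt row is shared with tRF-22-8EKSPM852, as the base that separates the pair lies outside it. Alanine tRF-22-8EKSP1852 had a median of 0.120 (0.0538 to 0.228).

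Glycine tRF-22-WE8SPOL52 had a ratio of 1.75 over all libraries, with 0.509, 1.59 and 3.77 as lowest, median and highest. Threonine tRF-22-WB86Q3P92 had 0.163, 0.628 and 2.15. For these 2 members neither length was the more abundant in every library. Serine tRF-22-WB8689SV2 lay lower, at 0.0464, 0.208 and 0.943. Leucine tRF-22-WB863IP52 had a median of 0.0272, valine tRF-22-WB08Q2B52 of 0.0252, glutamine tRF-22-8BWS72092 of 0.0297 and tyrosine tRF-22-WE884U1D2 of 0.0339, each below 0.17 in every library.

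The initiator methionine fragment tRF-22-WB0Q37Q52 depends on 1 library. Its summed ratio was 0.751 (553 against 736 counts), but 567 of the 18-nt counts came from AM132 library 8, and no other library had more than 24. Without that library the ratio was 3.11 (525 against 169). The other 12 described members, with 11965 counts (32.9% of the members' counts), include leucine tRF-22-WB86N7O52, glycine tRF-22-WE8SPOX52, valine tRF-22-W0K672052 and arginine tRF-22-WD8YQ84V2 (785 counts), and their nested 18-nt fragments were not analysed here. Ligation of adapters differs between sequences, so ratios between parents are those of counts, and the part of ligation in them was not tested.

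**Figure D2:**
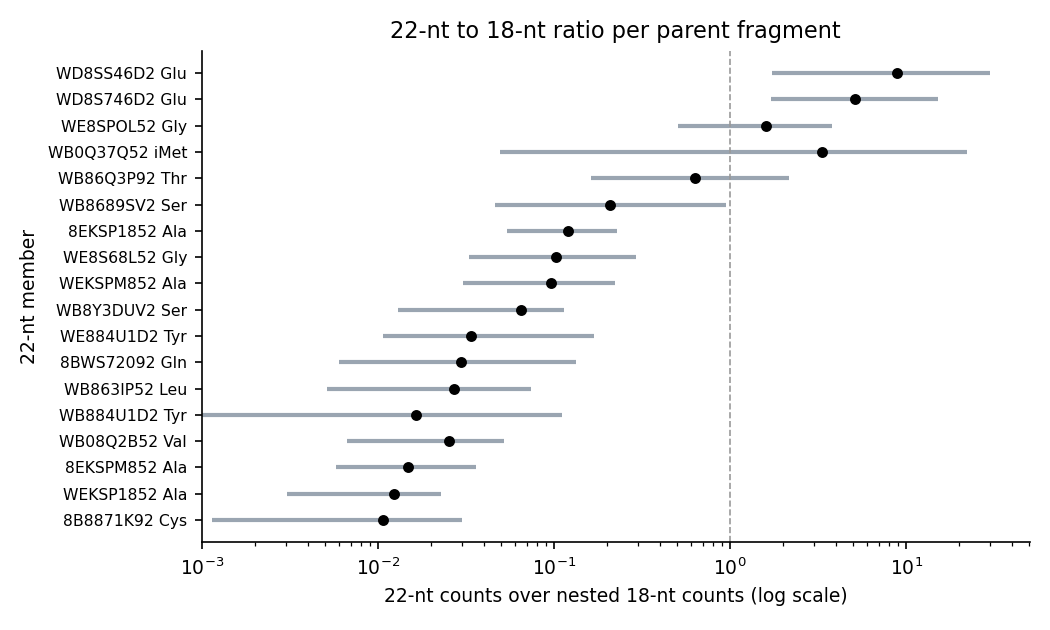
Ratio of 22-nt to nested 18-nt counts for the 18 described members with both lengths, on a logarithmic axis; points are medians over the libraries with an 18-nt count (22 libraries for tRF-22-WD8SS46D2, 24 for the others), bars run from the lowest to the highest library, a bar that reaches the left edge includes a library at 0, and the dashed line marks equal counts. Both glutamate members lie wholly above 1 and most others wholly below it.

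Libraries held 5689143 to 8734721 miRNA counts and 20580 to 80578 tRF counts. The highest tRF total was AM132 library 8, with 12.4 tRF counts per 1000 miRNA counts against at most 5.50 in every other library. In counts per 1000000 (CPM) of the miRNA table, a hepatocyte list of 5 miRNAs, with miR-122-5p among them, reached 351314 to 542928 over all libraries, so no library lacked the markers of liver. By group, the hepatocyte list had 475762 to 542928 CPM (AM132), 400754 to 480598 CPM (AM608) and 351314 to 500958 CPM (RCD). Other lists differed between groups too. The biliary list of 4 miRNAs was 769 to 2145 CPM in AM132 (median 1005), 553 to 3490 in AM608 (median 2133) and 553 to 1638 in RCD (median 1338). The mesenchymal list of 5 was 7689 to 12950 CPM in AM132 (median 11336), 9853 to 18894 in AM608 (median 16132) and 11358 to 33809 in RCD (median 14364). The leukocyte list (3 of 5 in the table) had highest values of 268, 286 and 1342 CPM in the same order of groups, and the erythroid list (3 of 4) 1300.2, 784 and 2365 CPM. Their medians lay closer, at 123, 171 and 189 CPM (leukocyte) and 510, 593 and 767 CPM (erythroid). The neuronal list had at most 1887 CPM and the muscle list at most 442 CPM, both in RCD. Medians in the same order were 442, 587 and 451 CPM (neuronal) and 16.3, 20.9 and 33.5 CPM (muscle). No marker in the table was at 0 in all libraries, and the part of these differences in the results below was not tested. In whole liver, fewer cells of a type and less RNA per cell cannot be told apart. Members had 748 to 2743 counts per library in sum, and 37 to 53 of the 86 were seen in a library.

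The summed share of the 22-nt CCA-ending fragments differed between groups by less than the spread within them. In AM132 the lowest, median and highest library had 2.38%, 5.17% and 6.92% of the tRF counts, in AM608 1.90%, 4.30% and 5.00%, and in RCD 2.72%, 3.99% and 6.35%. The groups overlapped over most of their range, and AM132 library 8 was the lowest of its group. The mean log2 share was 0.30 higher in AM132 than in AM608, with a pooled SD of 0.49. This difference was 0.43 without AM132 library 8 and 0.15 without AM608 library 1. AM608 lay 0.19 below RCD on the log2 scale (difference -0.19, pooled SD 0.46), but with miRNA counts as the denominator the difference was 0.11 and with all CCA-ending counts -0.36. It was -0.04 without AM608 library 1, -0.28 without RCD library 2, and -0.11 without RCD library 7 or RCD library 8. AM132 lay 0.11 above RCD (pooled SD 0.47), but 0.45 with miRNA counts as the denominator and 0.00047 with all CCA-ending counts. Leaving out single libraries gave 0.01 (RCD library 2), 0.03 (AM132 library 7), 0.06 (AM132 library 6 or RCD library 1) and 0.07 (AM132 library 5). It gave 0.19 without RCD library 7 or RCD library 8 and 0.25 without AM132 library 8.

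The ratio of summed 22-nt to summed 18-nt counts over nested pairs was 0.0848 to 0.208 in AM132 (median 0.140), 0.0415 to 0.158 in AM608 (median 0.0966) and 0.0775 to 0.255 in RCD (median 0.125). On the log2 scale AM132 differed from AM608 by 0.45 (pooled SD 0.54), AM608 from RCD by -0.49 (pooled SD 0.64) and AM132 from RCD by -0.04 (pooled SD 0.52). Each was smaller than the pooled SD, which includes the differences by library number described next. Without AM608 library 1 the first was 0.28 and the second -0.32. The third ranged from -0.15 (without RCD library 1) to 0.10 (without RCD library 8).

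The number in the sample title went with both measures. In AM608 the libraries numbered 1 to 4 had shares of 1.90% to 4.24% and those numbered 5 to 8 had 4.37% to 5.00%. In RCD these were 2.72% to 3.85% and 4.13% to 6.35%. Neither group had an overlap between its low and its high numbers. The ratio to 18 nt separated the same way, at 0.0415 to 0.0917 against 0.101 to 0.158 in AM608 and 0.0775 to 0.110 against 0.139 to 0.255 in RCD. In AM132 the ranges of the share overlapped (3.76% to 5.55% against 2.38% to 6.92%), as did those of the ratio (0.0848 to 0.141 against 0.140 to 0.208). The labels do not say what the number stands for, and each number occurs once in each group. Between libraries of the same number, the ratio was lower in AM608 than in RCD for 8 of 8 numbers (log2 difference -0.90 to -0.18, SD 0.24). It was higher in AM132 than in AM608 for 7 of 8 (-0.06 to 1.33, SD 0.41) and higher in AM132 than in RCD for 3 of 8 (SD 0.37). The share was higher in AM132 than in AM608 for 7 of 8 numbers, lower in AM608 than in RCD for 5 of 8, and higher in AM132 than in RCD for 7 of 8. These splits were looked at after the values were seen, and no test was made of them.

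**Figure D3:**
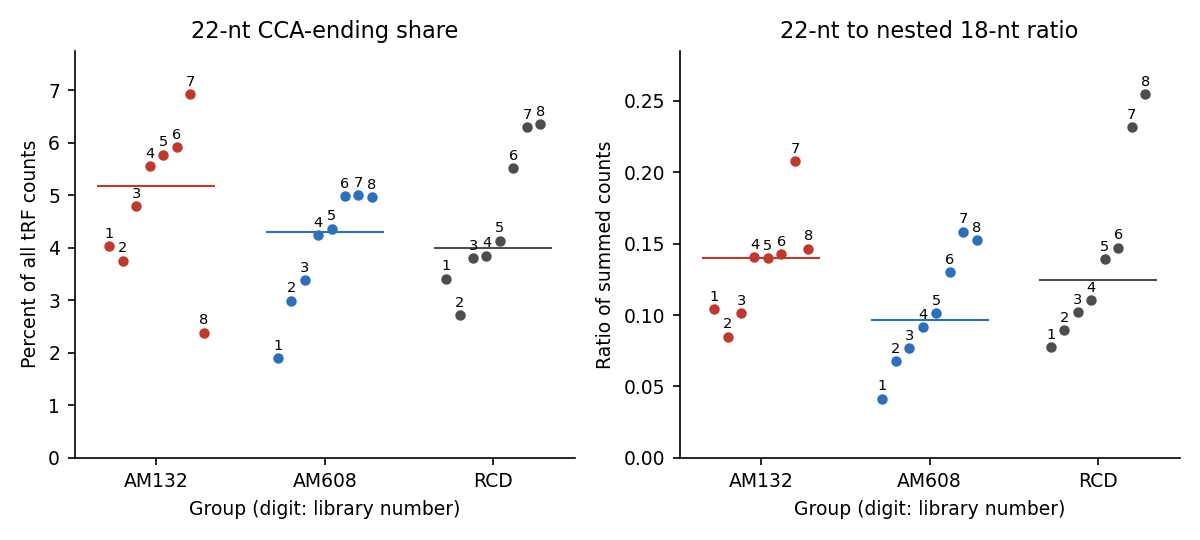
Left, summed counts of 22-nt CCA-ending tRFs as percent of all tRF counts; right, ratio of their summed counts to those of nested 18-nt tRFs; each point is a library marked with its number, horizontal lines are group medians, and colours stand for the groups. Groups overlap in both panels, and in AM608 and RCD the libraries numbered 5 to 8 all lie above those numbered 1 to 4.

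Single members were compared with edgeR's quasi-likelihood test over all tRFs, with adjustment over the 295 that passed the filter on low counts. The filter kept 24 of the 86 members, all among the 30 described. The 6 described members that were not tested had 109 to 216 counts: glycine tRF-22-WE8S68L52, phenylalanine tRF-22-WEK879652, tyrosine tRF-22-WB884U1D2, cysteine tRF-22-8B8871K92, histidine tRF-22-WB8US5652 and isoleucine tRF-22-WEKSU8P52. Levels of tRFs are CPM of the counts in tested tRFs, scaled with TMM factors. In AM132 library 8 tested tRFs held 48.4% of the tRF counts, against 86.9% to 90.4% in the others, so its CPM lie above its shares of all tRF counts. All members have the same length, so length does not enter into their CPM. As ligation of adapters differs between sequences, an order of members by CPM is one of counts. AM132 against AM608 asks what the oligonucleotide against miR-132 changed in obese liver, beside a control oligonucleotide. AM608 against RCD sets obese, injected mice against lean ones, and AM132 against RCD does so for the mice treated against miR-132. The comparisons share groups, so their values are not independent.

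Between AM132 and AM608, edgeR called 1 member lower and none higher, against 15 of 295 tested tRFs called (5.08%). Members were called higher under other settings, each time beside 1 lower. DESeq2 called 4 higher, against 17 of 295 tRFs called, and the library number as a block 4, against 16 of 295. RLE factors gave 3 higher (18 of 295 tRFs called), as did a mean of at least 10 counts (48 of 316). A fit of just those 2 groups gave 3 as well (13 of 290). No member was called with miRNA totals as library sizes (11 of 295 tRFs called) or in limma voom (5 of 295). Leaving out single libraries gave 0 to 4 higher and 0 to 1 lower members, beside 4 to 20 calls over all tested tRFs. The member called lower was alanine tRF-22-WEKSP1852. Its lowest, median and highest levels were 262, 349 and 451 CPM in AM132 (8 to 15 counts), 219.5, 781 and 1069 CPM in AM608 (7 to 48 counts) and 157, 447 and 839 CPM in RCD (3 to 16 counts). The AM132 libraries lay close together and most AM608 libraries lay above them, although 1 AM608 library was below all AM132 libraries, so the groups overlapped. The log2 fold change was -1.05 ± 0.29 (SE, n = 8 and 8), with an adjusted p of 0.0335 in edgeR. With single libraries left out the log2 fold change stayed between -1.20 and -0.94. The call was near the threshold and depended on the libraries kept. It was lost without AM132 library 4, 7 or 8 and without AM608 library 4, 5, 6, 7 or 8. Adjusted p was then 0.0517 to 0.0731 in edgeR. The call was lost too with miRNA totals as library sizes (log2 fold change -1.08, adjusted p 0.0561 in edgeR) and in limma voom (-0.92, adjusted p 0.105).

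The alanine members had fold changes of both signs in this comparison. Alanine tRF-22-WEKSPM852 had 8081, 11861 and 15687 CPM as lowest, median and highest level in AM132 and 3543, 8444 and 9873 CPM in AM608. Only the lower AM132 libraries fell within the AM608 range. Its log2 fold change was 0.68 ± 0.21 (SE), with an adjusted p of 0.0593 in edgeR. Alanine tRF-22-8EKSPM852 had 1038, 1905 and 2549 CPM in AM132 and 679, 1141 and 1380 CPM in AM608, and its log2 fold change was 0.74 ± 0.24 (SE, adjusted p 0.0662 in edgeR). Both values missed the threshold, but both passed it in the 5 settings above that called members higher.

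The remaining alanine members did not pass the test either. Alanine tRF-22-8EKSP1852 had 3836, 4932 and 6373 CPM in AM132 and 2854, 4342 and 7740.5 CPM in AM608, with a log2 fold change of 0.14 ± 0.22 (SE). Alanine tRF-22-WEK6PM852 had 763, 1068 and 1895 CPM in AM132 and 738, 1686 and 2267 CPM in AM608, with a log2 fold change of -0.60 ± 0.27 (SE, adjusted p 0.213 in edgeR). As a share of the 5 alanine members, tRF-22-WEKSP1852 made up 1.31% to 2.76% in AM132 (median 1.83%), 1.97% to 6.01% in AM608 (median 4.84%) and 1.04% to 3.53% in RCD (median 2.76%). The share of tRF-22-WEK6PM852 was 3.74% to 11.6% in AM132 (median 5.04%), 8.83% to 14.3% in AM608 (median 10.1%) and 5.21% to 18.2% in RCD (median 7.83%). The medians of both minor fragments were highest in AM608, and the ranges overlapped.

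The glycine pair had like fold changes. Glycine tRF-22-WE8SPOL52 had 1800.3, 2354 and 2844 CPM in AM132 and 856, 1460.0 and 2159 CPM in AM608, with a log2 fold change of 0.65 ± 0.20 (SE, adjusted p 0.0614 in edgeR). Glycine tRF-22-WE8SPOX52 had 3294, 4809 and 6103 CPM in AM132 and 1654, 3049 and 3953 CPM in AM608, with a log2 fold change of 0.64 ± 0.23 (SE, adjusted p 0.130 in edgeR). Neither passed the threshold here; the first did in all 5 of those settings and the second in DESeq2 and with the block. In both the AM132 median lay above every AM608 library.

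The other abundant members had smaller fold changes. Glutamate tRF-22-WD8S746D2 had 4474, 6263 and 8389 CPM in AM132 and 2628, 6587 and 12023 CPM in AM608, with a log2 fold change of -0.20 ± 0.27 (SE). Leucine tRF-22-WB86N7O52 had 3601, 5789 and 8567 CPM in AM132 and 2126, 4768 and 6398 CPM in AM608, with a log2 fold change of 0.37 ± 0.24 (SE). Valine tRF-22-W0K672052 had 1327, 2236 and 2808 CPM in AM132 and 974, 2049 and 3075 CPM in AM608, with a log2 fold change of 0.08 ± 0.22 (SE). The groups overlapped in all 3, and the differences were under 2 standard errors. Of the less abundant members, the largest values were those of glutamine tRF-22-8BWS7K092 (245 counts, 0.91 ± 0.40 SE) and threonine tRF-22-8BWSNKP92 (210 counts, 0.90 ± 0.33 SE), with adjusted p of 0.200 and 0.139 in edgeR.

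Over the 24 tested members, 20 log2 fold changes were above 0 and 4 below, with a median of 0.37, while over all 295 tested tRFs 144 were above 0 and the median was -0.01. An unadjusted p under 0.05 was reached by 8 of the 24 members and by 60 of the 295 tRFs. With miRNA totals as library sizes 19 of the 24 were above 0 (median 0.36). The 20 tested 18-nt CCA-ending tRFs had a median of -0.20, with none called and 4 above 0. Of 22 tested CCA-ending tRFs of other lengths none was called, and of 229 tested tRFs without CCA 12 were called higher and 2 lower.

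**Figure D4:**
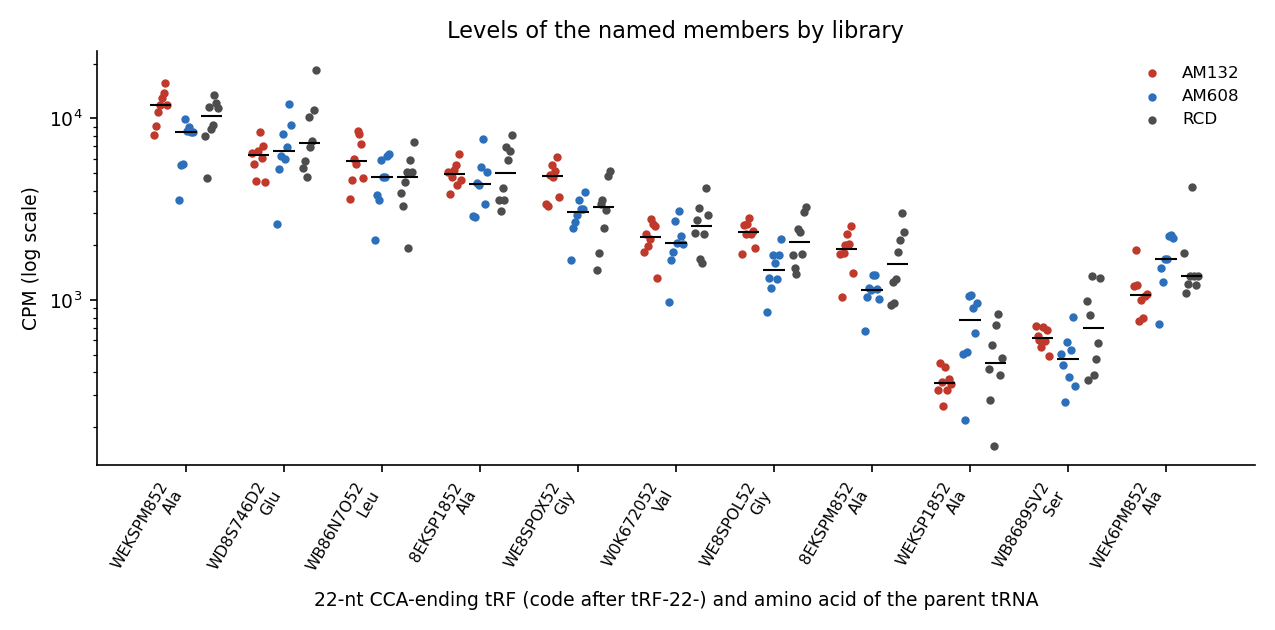
CPM on a logarithmic axis of the 8 most abundant members and of the other members on which a comparison turned; each point is a library, short black lines are group medians, and colours stand for the groups. For alanine tRF-22-WEKSP1852 the AM132 libraries (262 to 451 CPM) lie close together and within the wider AM608 range (219.5 to 1069 CPM).

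Between AM608 and RCD no member was called in edgeR, against 13 of 295 tested tRFs (4.41%). An unadjusted p under 0.05 was reached by 4 of the 24 members and by 74 of the 295 tRFs. DESeq2 called 1, glycine tRF-22-WE8SPOL52 (log2 fold change -0.59, adjusted p 0.0354), beside 30 of 295 tRFs. Limma voom called none, beside 18 of 295. With miRNA totals as library sizes edgeR called 1 higher, alanine tRF-22-WEKSP1852 (1.04, adjusted p 0.0273). That setting called 48 of the 295 tRFs higher and 2 lower. In edgeR the smallest p-values were those of tRF-22-WE8SPOL52 (-0.56 ± 0.21 SE, adjusted p 0.0954), alanine tRF-22-8EKSPM852 (-0.63 ± 0.24 SE, adjusted p 0.0978) and serine tRF-22-WB8689SV2 (-0.70 ± 0.27 SE, adjusted p 0.10). The RCD levels of tRF-22-WE8SPOL52 were 1391.5, 2080.0 and 3231 CPM as lowest, median and highest. Those of tRF-22-8EKSPM852 were 936, 1577 and 3009 CPM. The AM608 levels of both, given above, overlapped with these.

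Serine tRF-22-WB8689SV2 had 275, 470.5 and 803.5 CPM in AM608, 363, 703 and 1363 CPM in RCD and 492, 617 and 720.1 CPM in AM132. RCD libraries spread the widest and overlapped with both other groups. Its 18-nt fragment, tRF-18-HRH7MSD2, rose in AM608 against RCD, by a log2 fold change of 1.26 (SE 0.31, adjusted p 0.0166 in edgeR), where the 22-nt fragment had -0.70. It rose in AM132 against RCD as well, by 1.08 (SE 0.31, adjusted p 0.0157 in edgeR), where the 22-nt fragment had -0.33. The median ratio of 22 nt to 18 nt for this parent was 0.0933 in AM608, 0.364 in RCD and 0.170 in AM132. The difference between both fold changes was not tested.

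In RCD, the lowest, median and highest levels of the other abundant members overlapped with AM608 throughout. Alanine tRF-22-WEKSPM852 had 4720.3, 10335 and 13523 CPM in RCD and a log2 fold change of -0.43 ± 0.21 (SE). Glutamate tRF-22-WD8S746D2 had 4783, 7268 and 18551 CPM and -0.32 ± 0.27. Leucine tRF-22-WB86N7O52 had 1941, 4756 and 7420.3 CPM and 0.02 ± 0.24. The group ranges overlapped for each of these. All 8 AM608 libraries lay below the RCD median for tRF-22-WEKSPM852, against 5 of 8 for the glutamate and 3 of 8 for the leucine member. Alanine tRF-22-8EKSP1852 had 3107, 5001 and 8138 CPM in RCD and a log2 fold change of -0.22 ± 0.22. Glycine tRF-22-WE8SPOX52 had 1456, 3268 and 5106 CPM and -0.13 ± 0.23. Valine tRF-22-W0K672052 had 1601, 2542 and 4113 CPM and -0.34 ± 0.22. Alanine tRF-22-WEKSP1852, lower in AM132 than in AM608, had 0.62 ± 0.29 (SE, adjusted p 0.177 in edgeR).

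Over the 24 tested members, 5 log2 fold changes were above 0 and 19 below, with a median of -0.38 beside -0.03 over all 295 tested tRFs. With miRNA totals as library sizes this was 11 above 0 and 13 below with a median of -0.03, so the direction depended on the scaling, which moved the median of all tested tRFs to 0.36. AM608 is the first group here and the second in the comparison with AM132, so the opposite medians of both comparisons are not separate observations. The 18-nt CCA-ending tRFs had a median of 0.32, with 2 of 20 called higher.

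Between AM132 and RCD no member was called in edgeR, against 45 of 295 tested tRFs (15.3%). An unadjusted p under 0.05 was reached by 2 of the 24 members and by 88 of the 295 tRFs. Neither DESeq2 (57 of 295 tRFs called) nor limma voom (35 of 295) called any member. With miRNA totals as library sizes 3 members were called higher, beside 88 higher and 18 lower over the 295 tRFs. With the library number as a block 1 member was called higher, beside 12 higher and 21 lower over the 295. The smallest p-values were those of glycine tRF-22-WE8SPOX52 (0.51 ± 0.23 SE, adjusted p 0.138), alanine tRF-22-WEK6PM852 (-0.60 ± 0.28 SE, adjusted p 0.145) and glutamate tRF-22-WD8S746D2 (-0.52 ± 0.27 SE, adjusted p 0.179), all in edgeR. The RCD levels of tRF-22-WEK6PM852 were 1089, 1360 and 4174 CPM. The groups overlapped for all 3.

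Of the 24 log2 fold changes, 12 were above 0 and 12 below, with a median of 0.00 beside 0.03 over all tested tRFs. The largest in size was -0.60, so no tested member differed by as much as 1 on the log2 scale. With miRNA totals as library sizes 20 were above 0 (median 0.40), a setting that moved the median of all tested tRFs to 0.46. The 18-nt CCA-ending tRFs had 1 of 20 called higher and a median of 0.31, those of other lengths 4 higher and 1 lower of 22, and tRFs without CCA 13 higher and 26 lower of 229.

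The precision of these comparisons was alike for most members. Standard errors of the log2 fold changes ran from 0.20 to 0.42 over the 3 comparisons, with medians of 0.26 to 0.27. The CPM ranges of the groups overlapped for all 24 members in each comparison. Over the 295 tested tRFs, groups did not overlap for 3 (1.02%) in AM132 against AM608, 1 (0.339%) in AM608 against RCD and 2 (0.678%) in AM132 against RCD. Initiator methionine tRF-22-WB0Q37Q52, from the tRNA that starts translation, had log2 fold changes of -0.03, 0.05 and 0.01 in the 3 comparisons, with SEs of 0.26. Arginine tRF-22-WD8YQ84V2 had 0.25, -0.37 and -0.12, threonine tRF-22-WB86Q3P92 0.38, -0.38 and -0.01, and proline tRF-22-8B8SOUPR2 (253 counts) 0.03, 0.26 and 0.29. None of these passed the threshold.

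**Figure D5:**
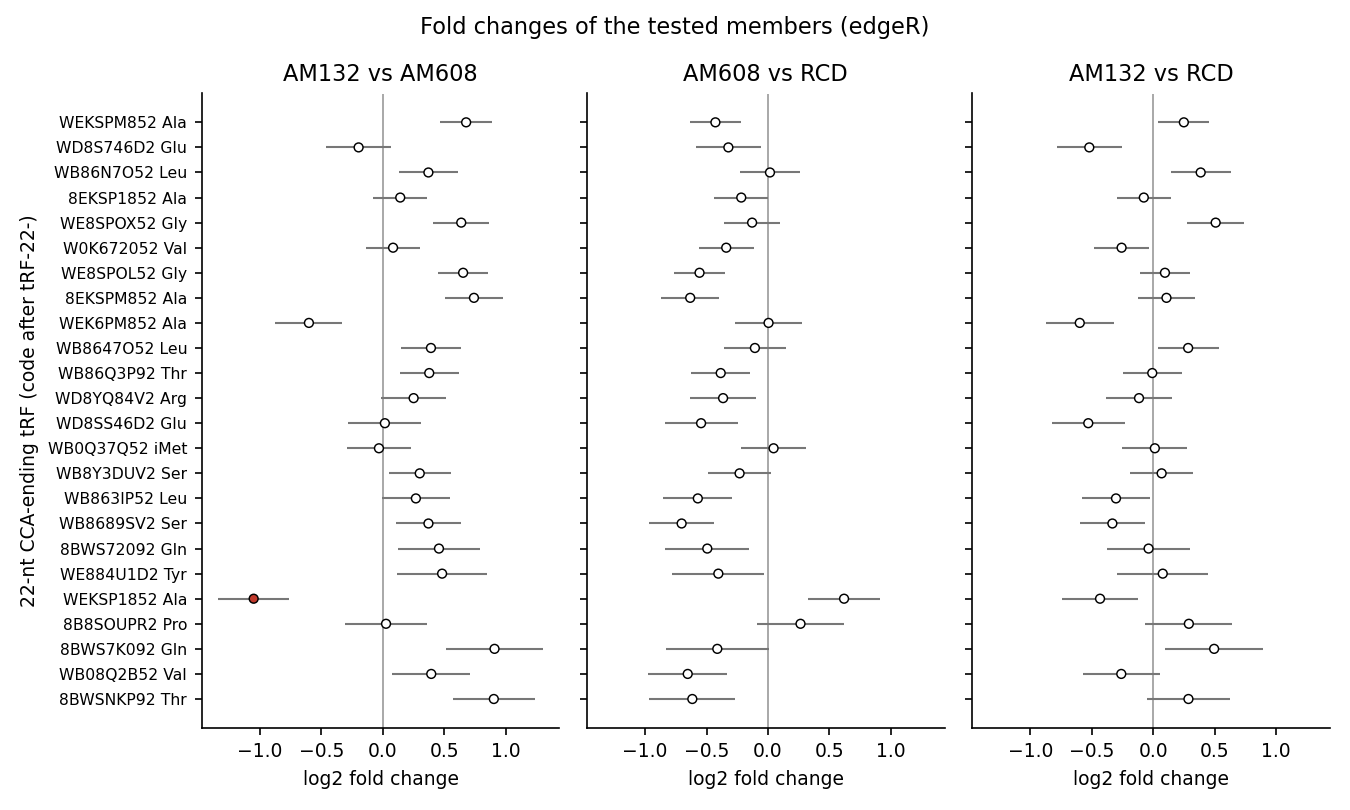
Log2 fold changes (points) and standard errors (bars) of the 24 tested members in 3 comparisons, in order of total counts from the top; the red point passed an adjusted p of 0.05 and open points did not. Alanine tRF-22-WEKSP1852 at -1.05 in AM132 against AM608 is the single red point, and most points lie above 0 in the first panel and below 0 in the second, which share the AM608 libraries.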

How the data were processed

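Small RNA of 24 liver samples was sequenced by the authors with the NEBNext small RNA kit, per the labels' protocols. The deposited tables hold raw read counts per miRNA and per tRF. FastQC is named in the submitters' processing notes. The aligner, the read assignment and the build were not given in the sources used here. Members and lists were chosen with earlier results of these data known. Names were decoded to sequences, and all 8456 encoded back to themselves.

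tRF counts of all 24 libraries were fitted in edgeR 4.0.16 (R 4.3.3) with TMM factors, filterByExpr, the robust quasi-likelihood test and group as the only term. Benjamini-Hochberg adjustment ran over 295 tRFs with a threshold of 0.05. Each SE was derived from the test, as the size of the log2 fold change divided by the square root of the F statistic. The spread behind it was estimated over all 24 libraries. As a check of the code, the fit was run on simulated counts in which most tested tRFs were changed and all had the same spread. Error rates in the real counts were not measured by it. Alternatives were RLE factors, library totals, miRNA totals, 2 other filters, DESeq2 1.42.0, limma 3.58.1 voom, fits of 2 groups, a block and each library left out. Sums, shares and ratios are descriptions without a test. The text names each member with 100 counts or more. It gives levels for the 8 most abundant members, those called, and the 3 with the smallest p per comparison. All 84 pairs of libraries of 1 group differed by more than sampling noise (1.88 or more in chi-square per degree of freedom). PCR reads have no molecular identifiers, and low counts kept 6 described members out of the tests.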

Additional observations from a re-analysis of the deposited data

Results flagged for a closer look

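Among 39 groups of 8 libraries looked at, chance alone would set a library apart in about 1 in 20, and 3 had one. Alanine tRF-22-WEK6PM852 stood at 1895 CPM in AM132 library 2, with the next library at 1205 CPM. The same fragment stood at 4174 CPM in RCD library 5, with the next at 1820.2 CPM. Glutamate tRF-22-WD8S746D2 stood at 18551 CPM in RCD library 8, with the next at 11151 CPM.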

How the results depend on the processing

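Over 42 results, 1296 alternative values were computed: 1177 kept direction and side of the threshold (or stayed within the spread or 1.5 times the count). In AM132 against AM608 the 1 called member became 4 with RLE factors, 4 with a mean of at least 10 counts, 4 with only the 2 groups in the fit, 5 with DESeq2, 5 with the replicate block, 0 with miRNA totals and 0 with limma voom. Leaving out single libraries gave 0 to 5. Over all tested tRFs, RLE factors called 18 of 295 and the fit of 2 groups 13 of 290. A mean of at least 10 counts called 48 of 316. DESeq2 called 17 of 295, the replicate block 16, miRNA totals 11 and limma voom 5. Alanine tRF-22-WEKSPM852 (0.69 to 0.75, adjusted p 0.0116 to 0.0426), glycine tRF-22-WE8SPOL52 and alanine tRF-22-8EKSPM852 passed in each of the 5 settings with more members called. In AM608 against RCD miRNA totals gave 1 member call (tRF-22-WEKSP1852, 1.04), beside 50 of 295 tested tRFs, and DESeq2 1, beside 30 of 295. In AM132 against RCD miRNA totals gave 3 (tRF-22-WEKSPM852 0.66, tRF-22-WB86N7O52 0.73, tRF-22-WE8SPOX52 0.88), beside 106 of 295 tested tRFs called. There the replicate block gave 1 (tRF-22-WE8SPOX52, 0.58), beside 33 of 295. The cause of these changes was not tested.

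The library number was not taken as a pairing, as not every same-numbered pair correlated above 0.1 over the tested tRFs (4, 5 and 4 of 8 pairs did). These correlations do not cover the summed ratio, which separated low from high numbers in AM608 and RCD. Correlations of deviations from the group means ran from -0.20 to 0.46 for AM132 and AM608, from -0.12 to 0.30 for AM608 and RCD, and from -0.29 to 0.43 for AM132 and RCD, and not every library correlated best with its own number (2, 1 and 3 of 8).

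Fold changes that changed sign were small and not called in any of these settings. For tRF-22-WB86N7O52 in AM608 against RCD they were -0.0283 (RLE), -0.0299 (mean of at least 10 counts), -0.0284 (DESeq2), -0.00876 (replicate block) and -0.13 to 0.16 with single libraries left out. For tRF-22-8EKSP1852, without a filter, they were -0.0121 in AM132 against AM608, 0.0648 in AM608 against RCD and 0.0528 in AM132 against RCD. With miRNA totals they were 0.18 in AM608 against RCD and 0.30 in AM132 against RCD. Library totals gave 0.0117 in the latter, and single libraries left out gave -0.16 to 0.0460. For tRF-22-WE8SPOX52 in AM608 against RCD they were 0.23 with miRNA totals, 0.12 without a filter and -0.26 to 0.0177 with single libraries left out. For tRF-22-W0K672052 in AM132 against AM608 they were -0.0538 without a filter and -0.0247 to 0.18 with single libraries left out. With miRNA totals it had 0.00051 in AM608 against RCD and 0.0548 in AM132 against RCD, where tRF-22-WB8689SV2 had 0.0786. For tRF-22-WEK6PM852 in AM608 against RCD they were -0.00643 (RLE), -0.0142 (mean of at least 10 counts), -0.0037 (DESeq2) and -0.0536 to 0.32 with single libraries left out.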
